A study of Lotus japonicus with 10 samples.

Results

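The ERF and AP2-like transcription factors described here are all probes whose name in the array files starts with LjERF or LjAP2. They make up 184 of the 3148 names on the array and 323 of its 5716 non-control probes. ERF names account for 164 names and 287 probes, and AP2-like names for 20 names and 36 probes. Of the ERF names 123 carry 2 probes and 41 carry 1, and of the AP2-like names 16 carry 2 and 4 carry 1. The names were chosen by their spelling, and no signal entered the choice.

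AP2/ERF proteins form a large family of plant transcription factors that share the AP2/ERF DNA-binding domain. ERF proteins carry the domain once. Many of them bind the GCC box in the promoters of defence genes, and in Arabidopsis their genes act downstream of ethylene, jasmonate and stress signals, some as activators and some as repressors. AP2-type proteins carry the domain in a repeated form and are known in Arabidopsis mainly from flower, seed and meristem development. The number in a Lotus name such as LjERF5 is the array designers' own and assigns no function by itself, so no role is given below to a single name.

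Leaves came from Lotus japonicus MG20, a model legume, grown in a glasshouse. Mature leaves were taken off the plant and kept under 10 mM glutathione (GSH), a thiol tripeptide used as an elicitor of defence responses, with shaking at 200 rpm and 28 °C. The 3 groups were unelicited leaves at 0 h (4 arrays), GSH for 3 h (3 arrays) and GSH for 6 h (3 arrays), each array holding Cy3-labelled RNA of 1 biological replicate. All groups share the MG20 background and the glasshouse, and GSH, submersion, shaking, temperature and time since detachment cannot be told apart.

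Signals are given on a log2 scale on which 0 is the upper quartile (75th percentile) of an array's own non-control probes, so a step of 1 is a doubling of signal. Per array, 2644 to 3805 probes (46.3% to 66.6%) stood well above background, among them 128 to 167 of the ERF probes and 8 to 20 of the AP2-like probes, and no spot was saturated. Probes entered the comparisons if 1 group or more had them well above background on each of its arrays. That left 153 ERF probes of 99 names and 17 AP2-like probes of 12 names, and the other 65 ERF names and 8 AP2-like names were not compared. A probe that passed only through the group where it was bright had to differ, so the counts below describe the compared probes and not all members. Of the 134 ERF probes not compared, 77 were above background on 0 arrays, and of the 19 AP2-like probes 11 were. The array carries no name for leaf, epidermis, vascular or root and nodule markers, so the tissue label was not checked. Unelicited replicates 1 and 2 were on slide 1 and the other 8 arrays on slide 2. The median SD of the compared ERF probes was 0.79 in unelicited leaves, 0.30 at 3 h and 0.45 at 6 h. The p-values measure the spread between these samples, of which the labels say only that they are biological replicates.

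The first comparison asked which ERF and AP2-like genes differed after 3 h in GSH. Among the 153 ERF probes, 73 rose and 32 fell, with a median log2 fold change of 1.48; with arrays scaled on the probes that were above background throughout, the split was 53 and 49, and with spike-in scaling 47 and 45. Of all 3309 probes compared on the array, 37.5% were higher and 36.7% lower, with a median of −0.05. The same shares were 24.2% and 50.2% with arrays scaled on the probes above background throughout and 20.4% and 46.3% with spike-in scaling. On slide 2 alone, spike-in scaling gave 73 of 161 ERF probes higher and 45 lower, beside 31.6% and 43.6% of all probes. AP2-like probes went mostly the other way under each of these scalings, with 3 of 17 higher and 11 lower, and their median was −2.43. With normexp, another background correction, 1 AP2-like probe was higher and 3 were lower at 3 h, with a median of −0.12, where 30.2% of all probes were higher and 17.5% lower. Of the 73 rises 12, and of the 32 falls 11, were of probes dim on every array of 1 of the groups, for which no exact fold is given. The other 61 rises ran from 0.87 to 8.86 with a median of 3.45, and the other 21 falls from −0.68 to −7.11 with a median of −2.84. Some of these probes, the largest rises among them, were dim on part of a group's arrays, so their sizes are uncertain. On slide 2 alone, all 105 of these ERF changes kept their direction, and 68 of the 73 rises and 27 of the 32 falls passed again. Slide 2 holds every GSH array that made these calls, so this was not an independent check. Of all probes compared there, whether or not they had passed before, 38.9% were higher and 39.2% lower. In a bulk leaf sample, fewer cells of a type and less RNA per cell cannot be told apart. The difference between ERF and AP2-like probes was not tested, because probes are not replicates of a condition.

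**Figure D1:**
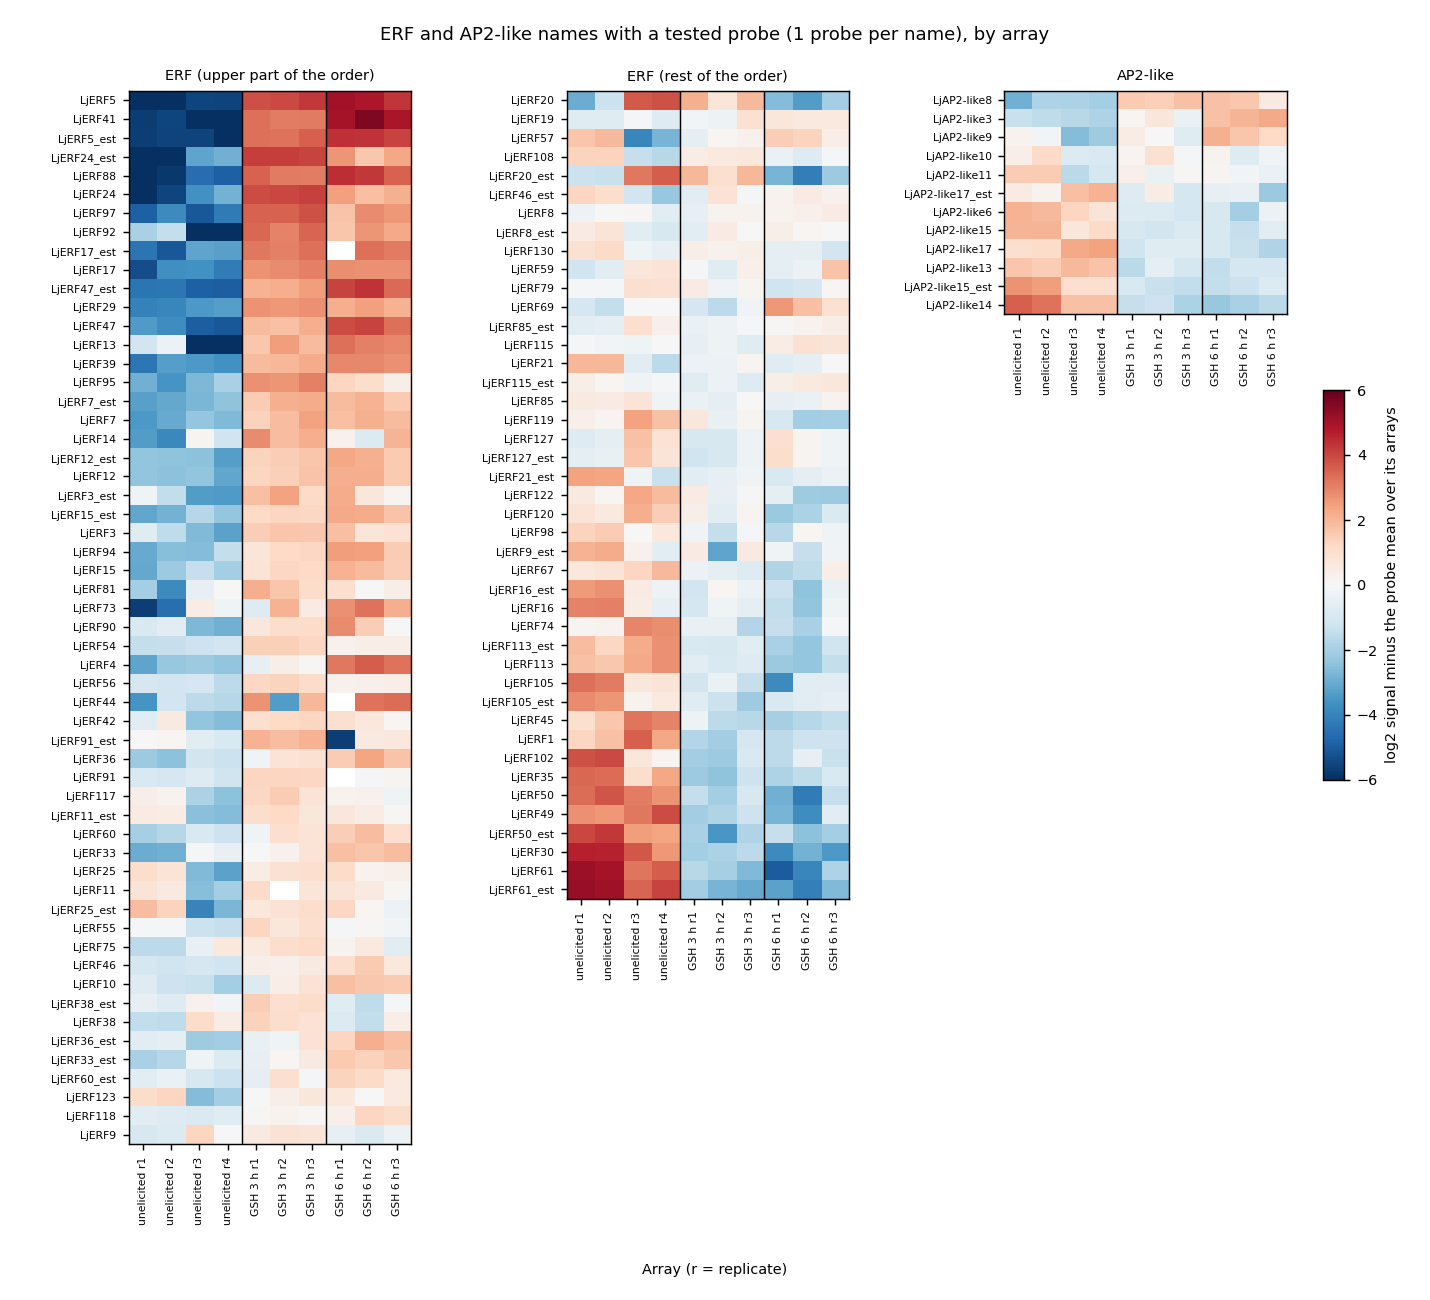
Log2 signal minus the probe's own mean over its arrays (colour, red above and blue below) for 1 compared probe of each ERF and AP2-like name (rows) on the 10 arrays (columns, r for replicate). White cells are spots left out as outliers; the 6 GSH arrays differ from the 4 unelicited ones in most rows, and fewer rows differ between 3 h and 6 h.

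Several ERF names went from at or near background in unelicited leaves to among the array's brighter spots. LjERF5 (probe 1) gave −8.0, −7.07, −5.44 and −5.50 on unelicited replicates 1 to 4, then 3.93, 4.03 and 4.32 at 3 h and 5.13, 4.92 and 4.38 at 6 h. It was not well above background on any unelicited array, and no GSH array came near them. Where a group is dim throughout in this way, the fold is a lower bound, set against the higher of the probe's own signal and the lowest signal that was well above background on each of those arrays. By that bound LjERF5 was at least 592-fold higher at 3 h and at least 972-fold higher at 6 h, and its probe 2 at least 412-fold and 753-fold (limma adjusted p = 1.53e-07 and 1.82e-08 at 3 h). Both probes entered the comparison only through their GSH arrays, so these p-values add no support of their own. LjERF5_est, whose 4 unelicited arrays lay between −7.16 and −6.71, reached 2.13 to 2.44 at 3 h, at least 164-fold higher.

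LjERF41 (probe 1) behaved alike, with unelicited signals of −5.90, −5.72, −6.96 and −7.13, all dim, against 3.11, 2.85 and 2.90 at 3 h and 4.80, 5.40 and 4.68 at 6 h. The 3 groups were fully apart, with the 6 h arrays above the 3 h arrays. The bound for probe 1 was at least 269-fold at 3 h and 1080-fold at 6 h, and for probe 2 it was at least 284-fold and 1097-fold. LjERF97 (probe 1) was also dim on every unelicited array, between −6.26 and −5.02, and stood at 2.32, 2.34 and 2.62 at 3 h, at least 186-fold higher. Its probe 2, above background on 2 unelicited arrays, rose by 6.30 (SE 0.36, adjusted p = 1.93e-07).

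LjERF88, LjERF24 and LjERF92 were above background on only some unelicited arrays on probe 1, so the sizes of their rises are uncertain. LjERF17 was faint but above background on all 4. LjERF88 (probe 1) gave −6.29, −5.36, −4.16 and −4.50 in unelicited leaves and 3.97, 3.52 and 3.48 at 3 h, a rise of 8.73 (SE 0.49, adjusted p = 1.67e-07). LjERF24 (probe 1) gave −7.54, −6.59, −4.71 and −3.94, with the slide 1 arrays lower, and then 2.83, 2.92 and 3.00 at 3 h. The LjERF24 rise was 8.61 (SE 0.73, adjusted p = 2.74e-06), 8.64 on probe 2 and 8.86 on LjERF24_est, and 7.24 on slide 2 alone for probe 1. LjERF17 (probe 1) went from −5.27, −3.63, −3.57 and −4.16 to 2.73, 2.89 and 3.08, a rise of 7.06 (SE 0.39, adjusted p = 1.73e-07). LjERF17_est rose by 7.14 (SE 0.47). The unelicited groups of all 4 names lay clear of the 3 h arrays. LjERF92 (probe 1) separated the slides before any GSH, at −2.56 and −2.05 on slide 1 and −7.06 and −7.22 on slide 2, and reached 2.85, 2.36 and 2.90 at 3 h. Its rise was 7.42 (SE 1.20, adjusted p = 0.000264) over all arrays. Both slide 2 unelicited arrays were dim, and within slide 2 it was at least 197-fold higher. Probe 2, dim in unelicited leaves, was at least 2.99-fold higher over all arrays.

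Other ERF names were well measured in unelicited leaves and rose from there. LjERF47_est gave −0.23, −0.19, −0.74 and −0.79 in unelicited leaves and 6.22, 6.32 and 6.66 at 3 h, with no overlap. That was a rise of 6.88 (SE 0.31, adjusted p = 5.40e-08), and LjERF47 rose by 6.23 (SE 0.44) on probe 1 and 7.01 (SE 2.24) on probe 2. LjERF29 (probe 1) went from 0.44, 0.59, 1.07 and 1.19 to 7.20, 7.09 and 7.24, a rise of 6.35 (SE 0.27, adjusted p = 3.78e-08). LjERF7 (probe 1) stood at 1.10, 1.52, 2.25 and 1.90 and then at 5.93, 6.43 and 6.97, and rose by 4.75 (SE 0.35). The LjERF7 probe 2 and LjERF7_est values, 4.80 (SE 0.29) and 4.81 (SE 0.30), lay within an SE of it. LjERF12 (probe 1) rose by 4.05 (SE 0.30) and LjERF12_est by 4.14 (SE 0.32). On LjERF15, probe 1, probe 2 and the _est probe rose by 3.26 (SE 0.38), 3.90 (SE 0.40) and 3.73 (SE 0.35).

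**Figure D2:**
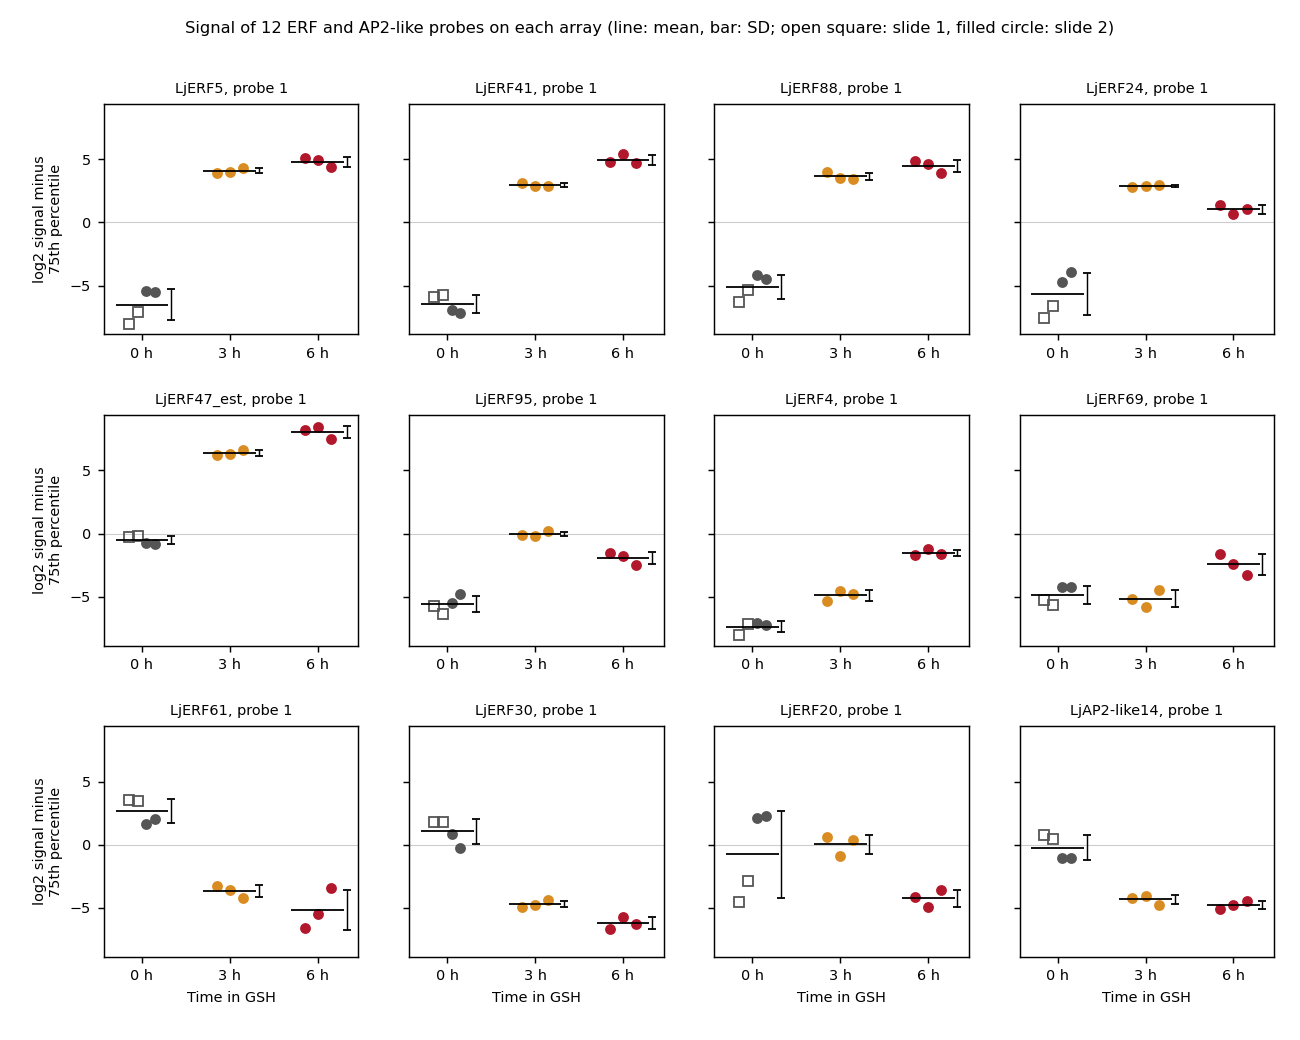
Log2 signal minus the array's 75th percentile (vertical axis) of 12 ERF and AP2-like probes at 0, 3 and 6 h (horizontal axis); points are arrays, open squares slide 1, filled circles slide 2, lines means and bars SDs. LjERF5 and LjERF41 lie below −5 at 0 h and above 2 in GSH, LjERF4 and LjERF69 are high at 6 h, LjERF95 is highest at 3 h, and LjERF61, LjERF30 and LjAP2-like14 are high at 0 h.

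In the main fit the falls were smaller in number. The largest were picked among probes well above background on every unelicited array, so signal before GSH was required of them. LjERF61_est gave 3.67, 3.53, 1.95 and 2.52 in unelicited leaves, highest on slide 1, and −3.66, −4.34 and −4.59 at 3 h. It fell by 7.11 on the log2 scale (SE 0.50, adjusted p = 7.25e-07), LjERF61 probe 1 fell by 6.35 (SE 0.72), and probe 2, dim at 3 h, was at least 61.0-fold lower. LjERF30 (probe 1) went from 1.81, 1.77, 0.89 and −0.24 to −4.89, −4.73 and −4.41, with no overlap, and fell by 5.74 (SE 0.49, adjusted p = 2.78e-06). LjERF49 (probe 1) went from 0.34, 0.22, 0.76 and 1.51 to −4.49, −4.18 and −3.64, and fell by 4.81 (SE 0.64, adjusted p = 6.16e-05). The LjERF50 pattern was similar, at 1.18, 1.57, 0.90 and 0.53 on probe 1 in unelicited leaves and −3.64, −4.25 and −3.16 at 3 h, a log2 change of −4.73 (SE 0.59). LjERF50_est was dim on all GSH arrays and at least 20.3-fold lower at 3 h. LjERF35, between −3.60 and −1.20 in unelicited leaves on probe 1, was dim on every GSH array and at least 5.86-fold lower at 3 h and 4.6-fold lower at 6 h. LjERF113 (probe 1) fell by 2.90 (SE 0.34), and LjERF105_est passed with a change of −2.97 (SE 0.65).

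Some 3 h calls were close to the threshold. LjERF33 rose by 1.96 (SE 0.70) on probe 1 and 1.17 (SE 0.44) on probe 2, but by 0.62 and 0.56 on slide 2 alone, where neither passed (adjusted p = 0.0916 and 0.206). LjERF16 changed by −2.10 on probe 1 and −2.79 on probe 2, which passed with overlapping groups, and on slide 2 alone its changes were −0.58 and −0.69 and did not pass. LjERF11_est rose by 2.02 (SE 0.78, adjusted p = 0.0369), while LjERF11 rose by 2.14 on probe 2 and was at 1.75 on probe 1 without passing (adjusted p = 0.110). On slide 2 alone LjERF11 gave 3.24 on probe 1 and 3.06 on probe 2, and LjERF11_est 3.54, each of which passed. The LjERF16 call on both probes was lost without any 1 of the 6 GSH arrays or either slide 1 array (adjusted p up to 0.131 on probe 1). That of LjERF11_est was lost without any GSH 3 h array, GSH 6 h replicate 2 or 3, or either slide 2 unelicited array (up to 0.0942). For LjERF33 either slide 1 array, GSH 3 h replicate 2 or GSH 3 h replicate 3 did so (up to 0.0911 on probe 1).

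The second comparison set 6 h in GSH against unelicited leaves. By then 76 of the 153 ERF probes had risen and 40 had fallen, and the median was 1.22; scaling on the probes above background throughout gave 60 and 49, and spike-in scaling turned the balance to 48 higher and 53 lower. Over all 3309 probes 37.5% were higher and 38.4% lower, with a median of −0.07. Those shares became 25.2% and 50.8% under the first of these scalings and 19.1% and 53.4% under the second. The balance did not turn with spike-in scaling on slide 2 alone. There 68 of 161 ERF probes were higher and 56 lower, beside 27.5% and 50.4% of all probes. Leaving aside probes dim throughout a group, 63 rises ran from 0.80 to 9.56 (median 3.37) and 20 falls from −1.0 to −7.83 (median −2.80). Here too the largest sizes came from probes dim on part of a group's arrays and are uncertain. On slide 2 alone 73 of the 76 rises and 33 of the 40 falls passed again in the same direction, again on arrays that had made the calls. Of all probes compared there, whether or not they had passed before, 38.6% were higher and 40.5% lower. This comparison uses the same unelicited arrays as the first, so the 2 sets of values are not independent.

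LjERF47 (probe 1) gave 0.34, 0.04, −1.17 and −1.33 in unelicited leaves and 7.66, 7.82 and 7.07 at 6 h. It rose by 8.05 (SE 0.44, adjusted p = 1.16e-07) and LjERF47_est by 8.55 (SE 0.31, adjusted p = 1.24e-08). LjERF47 probe 2 read 8.49 and 7.69 on GSH 6 h replicates 2 and 3 but −3.20 on replicate 1, a spot that was well above background and not marked as an outlier, and with it the change of 4.75 (SE 2.24) did not pass (adjusted p = 0.0755). LjERF88 probe 1 rose by 9.56 (SE 0.49) at 6 h. LjERF24 probe 1 rose by 6.73 (SE 0.73) and LjERF17 probe 1 by 6.98 (SE 0.39). LjERF97 (probe 1) was at least 79.4-fold higher.

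LjERF13 entered the largest 6 h rises with a wide spread between slides. Its probe 1 gave −0.92 and −0.13 on slide 1 and −7.06 and −6.23 on slide 2 in unelicited leaves, then 1.84, 2.72 and 2.10 at 3 h and 3.54, 3.26 and 3.09 at 6 h. All GSH arrays lay above all unelicited arrays. Its 6 h rise was 6.88 (SE 1.51, adjusted p = 0.00193) over all arrays. Within slide 2, where both unelicited arrays were dim, it was at least 297-fold higher at 6 h. Among other names, LjERF36 rose by 3.65 (SE 0.44) on probe 1 and 3.15 (SE 0.40) on probe 2, LjERF60 by 2.92 (SE 0.40) and 2.83 (SE 0.46), and LjERF33 by 3.37 (SE 0.70) and 2.58 (SE 0.44). LjERF3, bright in unelicited leaves at 4.49, 3.70, 2.56 and 1.99 on probe 1, stood at 7.02, 5.93 and 6.07 at 6 h, a rise of 3.16 (SE 0.55, adjusted p = 0.000427).

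The deepest 6 h falls were in the names that had led at 3 h. LjERF61 (probe 1) gave 3.57, 3.43, 1.66 and 2.07 in unelicited leaves and −6.55, −5.46 and −3.42 at 6 h. It fell by 7.83 (SE 0.72, limma adjusted p = 4.53e-06), a size that is uncertain. GSH 6 h replicates 1 and 2 lay below the lowest signals well above background on those arrays, −4.56 and −4.16. LjERF61_est was dim on every 6 h array and at least 148-fold lower, and LjERF30 (probe 1) at least 40.8-fold lower. LjERF50 changed by −6.05 (SE 0.59) on probe 1 and −6.02 (SE 0.62) on probe 2, and LjERF49 probe 1 fell by 5.48 (SE 0.64). LjERF113 joined them at 6 h: from 0.26, 0.09, 0.78 and 1.22 in unelicited leaves its probe 1 read −2.20, −2.43 and −2.29 at 3 h and −3.74, −3.85 and −2.96 at 6 h, a fall by 4.11 (SE 0.34, adjusted p = 2.24e-06). LjERF113 probe 2 was at least 11.6-fold lower and LjERF113_est fell by 3.84 (SE 0.39).

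**Figure D3:**
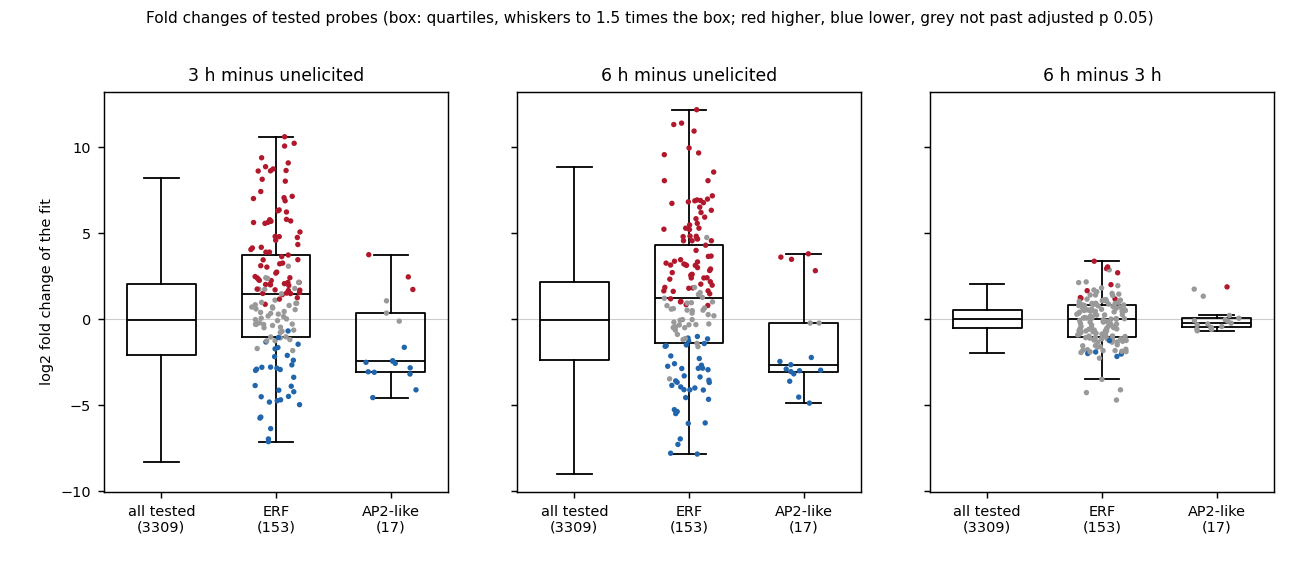
Log2 fold changes of the fit (vertical axis) at 3 h and 6 h against unelicited leaves and at 6 h against 3 h, for all compared probes, ERF probes (153) and AP2-like probes (17); boxes are quartiles, points probes, red higher, blue lower, grey not past an adjusted p of 0.05. The ERF median is 1.48 and 1.22 and the AP2-like median −2.43 and −2.64 in the first comparisons. Both lie near 0 between the times. With spike-in scaling over all arrays more ERF probes are lower than higher at 6 h, but not on slide 2 alone (68 higher, 56 lower).

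The third comparison, 6 h against 3 h, lay within slide 2. Few members passed: 9 ERF probes of 6 names were higher, 6 of 5 names were lower and 138 had no call. Of 17 AP2-like probes 1 was higher and 0 lower (3 and 0 at an unadjusted limma p under 0.05). Array-wide 3.35% of probes were higher and 1.99% lower. Fitted on the slide 2 arrays alone, without the spread that the slide 1 arrays add, 27 of 179 ERF and AP2-like probes were higher and 29 lower, beside 8.21% and 6.56% of all probes. Scaling slide 2 on its spike-in controls gave 11 higher and 46 lower, beside 3.75% and 18.8% of all probes. With normexp 0 of 170 were higher and 0 lower (limma; 26 and 17 at an unadjusted p under 0.05), beside 0.544% and 0.0302% of all probes.

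LjERF4 had the largest later rise. Its probe 1 gave −8.04, −7.12, −7.05 and −7.24 in unelicited leaves, all dim, then −5.34, −4.53 and −4.79 at 3 h, 1 of them above background, and −1.72, −1.24 and −1.60 at 6 h. The 6 h arrays were apart from the 3 h arrays by 3.37 (SE 0.35, limma adjusted p = 0.00251), and probe 2, dim at 3 h, was at least 1.99-fold higher at 6 h. LjERF4 probe 1 entered the comparison only through its 6 h arrays, so its p-value adds no support of its own. With most 3 h arrays dim, the size of 3.37 is uncertain. LjERF69 was dim on every 3 h array and higher at 6 h than in unelicited leaves on both probes. On its probe 2, unelicited signals of −5.14, −5.34, −4.75 and −5.04 were followed by −6.10, −5.97 and −6.30, all dim, and then by −2.36, −3.28 and −3.61. From 3 h to 6 h the LjERF69 bound was at least 2.94-fold on probe 2 and 4.59-fold on probe 1. LjERF41 probe 1 rose further by 2.01 (SE 0.42, adjusted p = 0.0255) and LjERF47_est by 1.66 (SE 0.33, adjusted p = 0.0206).

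LjERF115 and LjERF115_est were higher at 6 h than at 3 h on all 3 probes. Probe 1 read 0.61, 0.59, 0.49 and 0.70 in unelicited leaves, 0.25, 0.46 and 0.0 at 3 h, and 1.18, 1.65 and 1.52 at 6 h. From 3 h to 6 h the increase was 1.22 (SE 0.26) on probe 1, 1.26 (SE 0.28) on probe 2 and 1.18 (SE 0.27) on LjERF115_est. At 3 h only LjERF115_est had differed from unelicited leaves, at −0.68 (SE 0.25). Against unelicited leaves LjERF115 probe 1 was 0.85 higher at 6 h (SE 0.24, adjusted p = 0.00836), but at −0.21 with arrays scaled on the probes above background throughout and at −0.79 with spike-in scaling, so that direction depends on the scaling.

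LjERF95 rose at 3 h and had partly gone back by 6 h. Its probe 1 gave −5.72, −6.35, −5.49 and −4.78 in unelicited leaves, −0.09, −0.15 and 0.19 at 3 h, and −1.54, −1.77 and −2.45 at 6 h, with the 3 groups apart. After a rise of 5.57 (SE 0.38, adjusted p = 6.10e-07) at 3 h it fell by 1.90 (SE 0.41, adjusted p = 0.0267) between the times, and probe 2 fell by 2.16 (SE 0.33, adjusted p = 0.00852). LjERF54 (probe 1), at 1.06 to 1.36 in unelicited leaves, stood at 3.91, 3.94 and 3.75 at 3 h and 2.73, 2.90 and 2.88 at 6 h, a step down of 1.03 (SE 0.24). On that probe the change between the times was −1.03 with an adjusted p of 0.0360, and it remained above unelicited leaves by 1.65. LjERF91 probe 1 rose by 2.25 (SE 0.24) at 3 h and fell by 1.24 (SE 0.29, adjusted p = 0.0408) between the times, with GSH 6 h replicate 1 left out of the fit as an outlier spot. LjERF38_est rose by 1.49 (SE 0.38) at 3 h and fell by 1.99 (SE 0.40) after it, while LjERF38 gave −1.74 and −1.86 without passing (adjusted p = 0.202 and 0.102). LjERF130 probe 2 did not pass at 3 h and fell by 2.02 (SE 0.49, limma adjusted p = 0.0408) from 3 h to 6 h. LjERF20 changed by more than these called falls between the times, at −4.26 on probe 1 and −4.10 on probe 2, without passing. Its unelicited arrays lay far apart between the slides, and that spread enters the fit.

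These calls between the times rest on few arrays. Of the 13 passing probes that were refitted with each array left out, 12 lost the call without at least 1 of them. LjERF91 probe 1 had the highest such limma adjusted p, 0.233. LjERF4 probe 1 kept its call in each refit, but it was compared only through its bright 6 h arrays and so had to differ. Over ERF and AP2-like probes together, the main 10 higher and 6 lower became 3 and 1 without GSH 3 h replicate 1. Without GSH 3 h replicate 2 or 3 they became 4 and 1. Without GSH 6 h replicates 1, 2 and 3 in turn they became 5 and 3, 3 and 1, and 9 and 4. The whole array lost calls too: from 3.35% higher and 1.99% lower, its shares went to between 0.632% and 3.16% and between 0.151% and 1.91%.

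AP2-like probes fell more often than they rose at both times, with or without a slide block. Without the block, 4 of the 17 compared probes rose and 11 fell at 6 h. The median was −2.64, or −1.99 with dim members set at their bound. By name, 3 were higher, 7 lower and 2 without a call at each time. With slide as a block, 6 probes were higher and 11 lower at 3 h and 5 and 11 at 6 h, beside 40.8% and 38.9%, then 40.3% and 40.4%, of all probes. With normexp 1 was higher and 5 lower at 6 h, beside 30.2% and 23.8% of all probes. At 3 h normexp called 17.6% of the AP2-like probes lower, near the 17.5% of all probes. Of the AP2-like probes measured on every array of both groups, 4 of 6 fell at 3 h and 3 of 4 at 6 h, with 0 rising, while 26.9% and 27.5% of all probes so measured were lower. These 6 and 4 probes are too few to carry more than their values.

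LjAP2-like14 fell furthest. Its probe 1 gave 0.78 and 0.43 on slide 1 and −1.05 and −1.08 on slide 2 in unelicited leaves, −4.21, −4.04 and −4.73 at 3 h, and −5.07, −4.74 and −4.44 at 6 h. The GSH arrays were all below the unelicited ones. It fell by 4.10 (SE 0.49, adjusted p = 2.82e-05) at 3 h and was at least 16.7-fold lower at 6 h, and probe 2 fell by 4.55 (SE 0.80) and was at least 9.87-fold lower. LjAP2-like17 (probe 1) went from 0.25, 0.38, 1.55 and 1.73 to −1.89, −1.43 and −1.44 and then −1.66, −2.02 and −2.50, with changes of −2.56 and −3.04 (SE 0.42 for each) that passed. LjAP2-like15 (probe 1) went from 0.18, 0.20, −1.18 and −0.72 to −2.79, −2.96 and −2.69, and at 6 h read −2.82, −3.22 and −2.46. LjAP2-like15 changed by −2.43 (SE 0.38) and −2.45 (SE 0.38), and LjAP2-like15_est by −3.05 and −2.99 (SE 0.47 for each), all of which passed.

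LjAP2-like6 changed by −2.41 at 3 h and −2.64 at 6 h on probe 1 (SE 0.44 for each), and both passed, and probe 2 was at least 3.98-fold lower at 6 h. LjAP2-like13 probe 1, at −3.43, −3.60, −3.13 and −3.37 in unelicited leaves, was dim on all GSH arrays and at least 2.39-fold lower at 3 h and 1.88-fold lower at 6 h, though its 3 h change was 0.20 with normexp (adjusted p = 0.777). LjAP2-like17_est, fainter, passed at 3 h with a change of −1.63 (SE 0.62, adjusted p = 0.0360) that was lost without GSH 3 h replicate 1, GSH 3 h replicate 3 or either slide 2 unelicited array (adjusted p up to 0.129). Under normexp LjAP2-like17_est was at 0.09 (adjusted p = 0.891).

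LjAP2-like3, LjAP2-like8 and LjAP2-like9 went up. LjAP2-like3 probe 1 was dim in unelicited leaves at −6.65, −6.82, −6.99 and −7.17, read −5.19, −4.61 and −5.72 at 3 h with 1 array above background, and reached −3.56, −3.28 and −3.05 at 6 h. It entered the comparisons only through its 6 h arrays, so its p-values add no support of their own. It was at least 3.52-fold higher at 6 h than in unelicited leaves, and between the times it rose by 1.88 (SE 0.33, limma adjusted p = 0.0120). That call was lost without GSH 3 h replicate 1, GSH 3 h replicate 3 or GSH 6 h replicate 2 (adjusted p up to 0.067), and with normexp the LjAP2-like3 change was −0.15 (adjusted p = 0.907). LjAP2-like8 (probe 1) was dim in unelicited leaves, between −8.03 and −7.01, and was at least 2.90-fold higher at 3 h and 2.41-fold higher at 6 h. The LjAP2-like9 probes read −3.41, −3.77, −6.19 and −5.72 (probe 1) and −4.81, −5.62, −6.01 and −5.73 (probe 2) in unelicited leaves. At 6 h they read −1.49, −1.93 and −2.43 and −0.83, −2.37 and −2.02, rises of 2.82 (SE 0.67) and 3.80 (SE 0.42), and at 3 h only probe 2 passed, at 2.46 (SE 0.42).

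Without a slide block, neither LjAP2-like10 nor LjAP2-like11 passed in any comparison over all arrays. With slide as a block LjAP2-like10 was 1.18 higher at 3 h (adjusted p = 0.0190), and LjAP2-like11 was 1.32 higher at 3 h (adjusted p = 0.00228) and 1.21 at 6 h (adjusted p = 0.00366). LjAP2-like11 probe 1 read 0.01 and 0.00 on slide 1 and −3.12 and −2.58 on slide 2 in unelicited leaves, with the GSH arrays between, from −1.92 to −1.23. Without the block its 3 h change was −0.11 (SE 0.74), and on slide 2 alone LjAP2-like11 was also at 1.32 (adjusted p = 0.00485). LjAP2-like1, LjAP2-like2, LjAP2-like4, LjAP2-like5, LjAP2-like5_est, LjAP2-like7, LjAP2-like12 and LjAP2-like16 were not compared.

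Some ERF names that were bright in unelicited leaves had few calls, and several of these depended on the scaling. LjERF8 probe 1 read 3.70, 4.05, 4.08 and 3.38 in unelicited leaves, 3.54, 4.23 and 4.21 at 3 h, and 4.21, 4.31 and 4.49 at 6 h. Its changes of 0.19 (SE 0.29) and 0.53 (SE 0.29) did not pass, though quantile normalization gave −1.96 and −1.84 and called them lower, and scaling on the probes above background throughout gave −0.88 at 3 h (adjusted p = 0.0214). LjERF8_est gave 0.02 (SE 0.46) and 0.27 (SE 0.46), and LjERF85_est −0.30 (SE 0.39) and 0.20 (SE 0.39), none of which passed over all arrays. On slide 2 alone LjERF8_est was 0.98 higher at 6 h (adjusted p = 0.0301) and LjERF85_est was at −0.93 at 3 h (adjusted p = 0.0151). At 6 h LjERF85_est turned and was called lower with quantile normalization (−1.48), with spike-in scaling (−1.44) and with scaling on the probes above background throughout (−0.86). LjERF9 probe 1, at 5.16, 5.31, 7.42 and 6.15 in unelicited leaves, gave 0.84 (SE 0.49) at 3 h and −0.44 (SE 0.49) at 6 h without passing, but quantile normalization turned the 3 h change to −2.08 (adjusted p = 7.92e-05), and LjERF9 probe 2 passed at 6 h alone, at −1.54 (SE 0.36). LjERF38 probe 1, at 2.52, 2.45, 5.10 and 4.42, overlapped the GSH arrays and did not pass at either time. LjERF16_est, at 4.86, 5.05, 2.77 and 1.98, passed at 6 h, with a change of −2.73 (SE 0.78, adjusted p = 0.00896), and was at −1.44 on slide 2 alone, where it did not pass (adjusted p = 0.0511).

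Where 2 probes of a name were compared, they mostly had the same call. For these 59 names the fold changes of the pair correlated at r = 0.959 for the 3 h comparison, 0.969 for 6 h and 0.855 for 6 h against 3 h, across names that share the same arrays. The call was the same for 47, 49 and 55 names, which counts names with neither probe called. For 10, 10 and 4 names only 1 probe was called. Between the times both probes were called only for LjERF4, LjERF69, LjERF95 and LjERF115. Opposite calls were made at 3 h for LjERF55 and LjERF75. LjERF75 probe 1 rose by 1.67 (SE 0.54) from 3.93, 3.97, 5.09 and 6.13, with overlapping groups, and was at −1.13 under quantile normalization, and its probe 2 fell by 2.65 (SE 0.42) from 1.11, 0.85, 0.46 and −0.55. The LjERF75 probe 1 call was lost without GSH 3 h replicate 2 or 3 (adjusted p up to 0.0574), and on slide 2 alone the change was 0.84 and did not pass (adjusted p = 0.109). LjERF55 probe 1 rose by 1.71 (SE 0.39) and probe 2 fell by 1.64 (SE 0.31), or 2.34 and −1.66 on slide 2 alone. Both LjERF55 probes had groups that did not overlap at 3 h, but with normexp LjERF55 probe 2 was at 0.05 (adjusted p = 0.939), so its fall depends on the background correction.

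**Figure D4:**
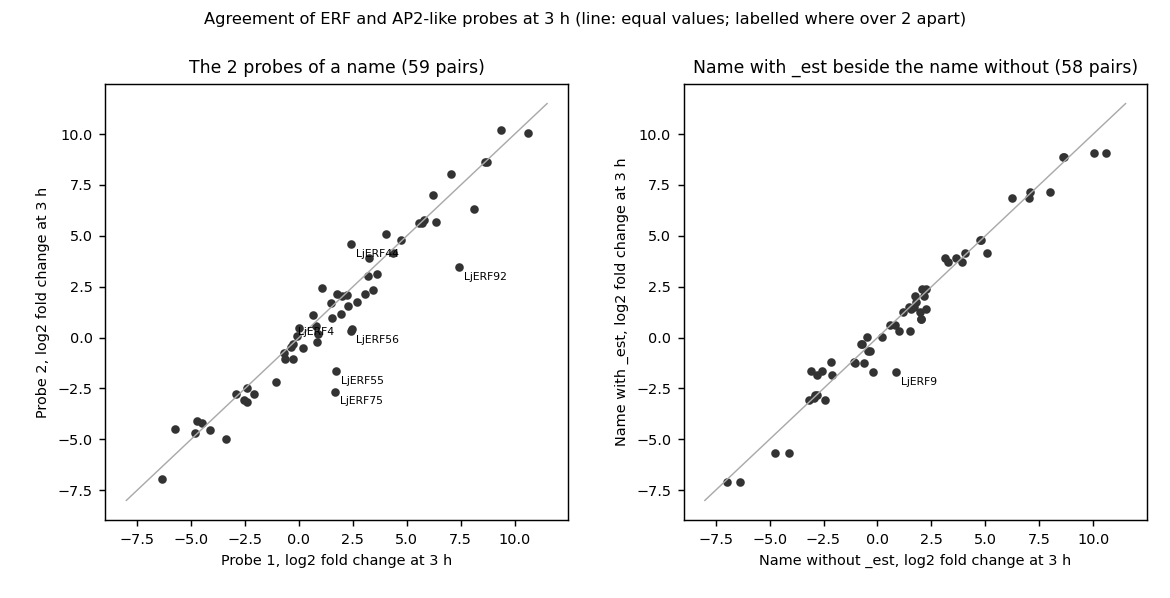
Log2 fold changes at 3 h of the 2 probes of a name (59 pairs) and of a name with _est against the name without it (58 pairs); points are pairs, the line marks equal values, and pairs over 2 apart are labelled. Points lie around the line, with a median absolute difference of 0.6 between the 2 probes of a name and 0.29 for _est pairs. LjERF55 and LjERF75 have probes with opposite calls.

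Names ending in _est were set beside the same name without it; the labels do not say what the suffix means. All 41 _est names have a plain partner. For 30 of them both forms were compared, for 6 only the plain name and for 5 neither. Over the 58 probe pairs so formed, the fold changes correlated at 0.983, 0.978 and 0.809 in the 3 comparisons. The call was the same, or absent from both, in 46, 48 and 53 pairs, and 0 had opposite calls. In 12, 10 and 5 pairs only 1 form was called. Between the times both forms were called only for LjERF115. The median correlation of a pair over the 10 arrays was 0.962. LjERF9 probe 1 with LjERF9_est was the lowest, at −0.368: the plain probe was lowest on slide 1 in unelicited leaves, and LjERF9_est was highest there, at 1.23 and 1.40 against −0.61 and −1.47 on slide 2. LjERF46 gave 1.52 (SE 0.27) on probe 1 and passed at 3 h, though with quantile normalization it was at −0.05, whereas LjERF46_est gave 0.30 (SE 0.81) and did not pass over all arrays, and 1.75 (adjusted p = 0.0100) on slide 2 alone.

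Single spots decided some of these differences. LjERF91_est read 0.41 and 0.49 on GSH 6 h replicates 2 and 3 and −5.77 on replicate 1, and its 6 h change was −1.12 (SE 1.26, adjusted p = 0.433) with that spot and 0.95 (adjusted p = 0.0363) without the array. LjERF44 probe 1, picked after its values were seen, read 0.99 and 0.28 on GSH 3 h replicates 1 and 3 and −5.04 on replicate 2, where probe 2 read −0.37. Its 3 h change did not pass on probe 1 (2.41, SE 1.29), and on probe 2 LjERF44 rose by 4.59 (SE 0.37). LjERF105 probe 1 read −3.39 on GSH 6 h replicates 2 and 3 and −6.56 on replicate 1. The low spots of LjERF91_est, LjERF105 probe 1 and LjERF47 probe 2 were all on GSH 6 h replicate 1. That array also had the most outlier spots, 64, with 34 on the next, unelicited replicate 1.

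The 2 slides of unelicited leaves differed for part of the family. Across the compared ERF probes the slide 2 mean minus the slide 1 mean had a median of −0.04, but 44 probes lay over 2 apart, and for AP2-like probes the median was −0.97 with 4 probes over 2 apart. LjERF20 had its slide 1 arrays far below those of slide 2. Its probe 1 read −4.56 and −2.86 on slide 1 and 2.10 and 2.26 on slide 2 in unelicited leaves, 0.59, −0.85 and 0.36 at 3 h, and −4.16, −4.92 and −3.59 at 6 h. Over all arrays the 3 h change was 0.80 and the 6 h change −3.46 (SE 1.5 for each), neither of which passed, and on slide 2 alone they were −2.15 (adjusted p = 0.00394) and −6.40 (adjusted p = 4.66e-06). At 6 h probe 2 passed over all arrays too, at −3.54 (SE 1.35, adjusted p = 0.0347), and LjERF20_est was at least 8.51-fold lower. Within slide 2 LjERF20_est passed at 3 h, at −1.76, and the bound at 6 h was at least 43.6-fold lower.

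LjERF25 and LjERF21 split by slide as well. LjERF25 probe 1 read −0.82 and −1.07 on slide 1 and −4.54 and −5.08 on slide 2, and its 3 h change was 1.79 (SE 0.98) over all arrays and 3.72 (adjusted p = 1.58e-05) on slide 2. LjERF21 probe 1 read 2.37 and 2.38 on slide 1 and −0.28 and −1.20 on slide 2, with the GSH arrays between −0.34 and 0.52, and changed by −0.63 (SE 0.81) over all arrays and 0.93 (adjusted p = 0.0416) on slide 2. LjERF127 probe 1 gave −1.08 (SE 0.60) over all arrays at 3 h and −2.07 (adjusted p = 0.00233) on slide 2, and its probe 2 fell by 2.17 (SE 0.41). What made the slides differ was not tested.

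**Figure D5:**
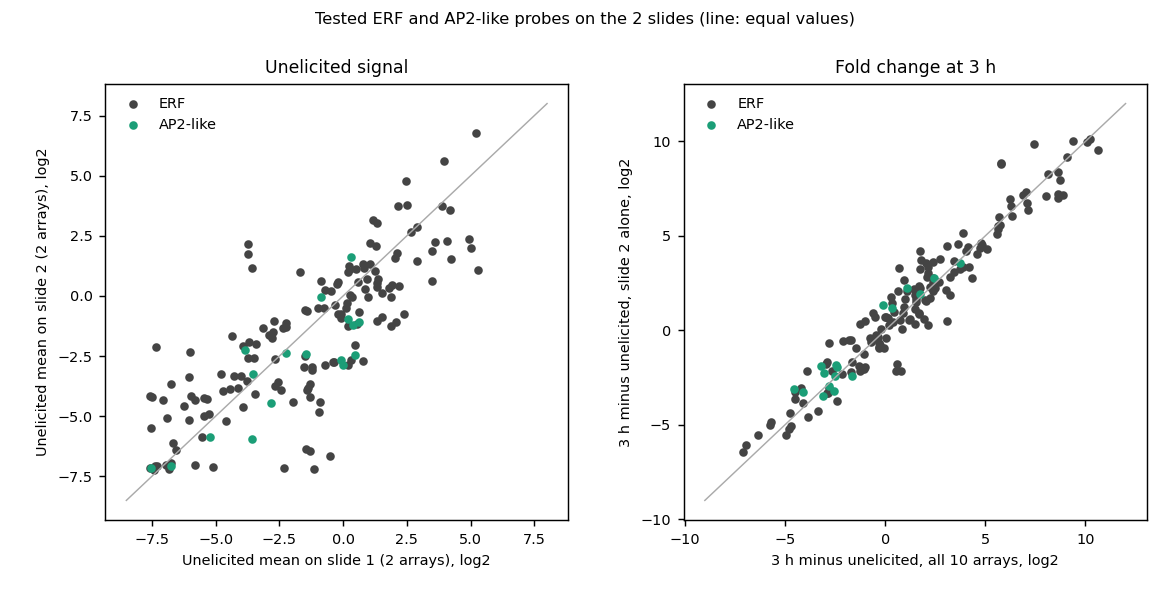
Left, mean log2 signal of each compared ERF and AP2-like probe on the unelicited slide 1 arrays (horizontal) and slide 2 arrays (vertical); right, its 3 h log2 fold change over all 10 arrays (horizontal) and on slide 2 alone (vertical); the lines mark equal values. Many points leave the line on the left, 44 ERF probes by more than 2, while the changes on the right mostly keep their sign.

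Among ERF probes measured on every array of both groups, which did not need a bright group to be compared, 44 of 92 rose and 10 fell at 3 h with a median of 1.14, and 42 of 85 rose and 11 fell at 6 h with a median of 1.01. Over all probes measured in that way, 41.8% rose and 26.9% fell at 3 h with a median of 0.47, and 42.4% and 27.5% at 6 h with a median of 0.51. Other families of transcription factors on the array gave their own balances at 3 h. WRKY probes rose in 86 and fell in 13 of 121 (median 2.65), NAC and NAM probes rose in 53 and fell in 25 of 105 (median 1.14), and bHLH probes rose in 32 and fell in 90 of 163 (median −1.30). These counts are over all compared probes, of which 37.5% rose and 36.7% fell. These families share arrays and scaling with the ERF probes, and differences between them were not tested.

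EIN3-like proteins act upstream of ERF genes in ethylene signalling in Arabidopsis, and LjEIL names were the only ones of the listed ethylene pathway genes on the array, with 10 names and 17 probes, 8 of them compared. At 3 h 2 rose, 3 fell and 3 did not pass, and at 6 h 3 rose and 3 fell, beside 37.5% and 36.7% of all compared probes at 3 h and 37.5% and 38.4% at 6 h. Both LjEIL2 probes rose, with LjEIL2_est passing at 6 h alone, by 1.09 (SE 0.26) and 1.12 (SE 0.30) at 3 h and by 1.83 (SE 0.26) and 1.82 (SE 0.30) at 6 h. LjEIL1 stood at 5.58 ± 0.21 (SD, n = 4) on 1 probe in unelicited leaves and 5.21 ± 0.06 (SD, n = 3) at 3 h. That change of −0.36 (SE 0.23, limma adjusted p = 0.172) and the −0.85 of its other probe did not pass, whereas LjEIL1_est fell by 1.98 (SE 0.40). LjEIL3, with GSH 3 h replicate 1 left out as an outlier spot, gave −0.70 (SE 0.27) at 3 h and −0.93 (SE 0.24) at 6 h, and passed at both. A list drawn up for jasmonate matched only CYP74 names, a family of oxylipin-forming cytochromes P450. Of its 11 compared probes 2 rose and 6 fell at each time, beside the same shares of all probes. The names do not say which members act in jasmonate synthesis, so this is not a count of jasmonate genes. Both rises were of 1 CYP74A name, and the falls were of CYP74B and CYP74C names, a split seen only after the values. The array carries no name spelled for ethylene synthesis or for other AP2/ERF groups such as DREB. Whether the LjERF names include such members cannot be told from their spelling.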

How the data were processed

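RNA of 10 leaf samples was labelled with Cy3 and read on 1-colour Agilent arrays; titles gave the groups. Each deposited file holds linear spot intensity values. Per the file headers these came from Agilent Feature Extraction (10.7.3.1), which subtracted background and removed spatial trends within an array but did not normalize between arrays. The series' deposited value table repeats them (62520 of 62520 values). Names are the files' own, and 0 of them matched the 40429 genes of the reference table, so no sequence or position is given.

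Processed signals were put on a log2 scale and each array's 75th percentile, taken across its 5716 non-control probes, was subtracted. Outlier spots (4 to 64 an array) were left out. The group means of 3309 probes were then estimated with limma's lmFit and eBayes (limma 3.58.1, R 4.3.3), using all 10 arrays, two-sided, with Benjamini-Hochberg adjustment at 0.05. The 75th percentiles were 227.25 to 1022.5, and precision is limited by how few arrays there are. Probe 1 of a name has the higher mean over all arrays. Probes eligible for naming were the 12 largest rises and 8 largest falls at each time, the 5 largest each way from 3 h to 6 h, all AP2-like names, all _est pairs, the 5 brightest names in unelicited leaves, the 3 brightest with no call, and names with opposite calls; the text names some of these. Members, lists and rules were chosen with earlier results of these data known. The code was tested on simulated data. Alternatives were normexp (offset 50, on median signals), other scalings, filters and variance models, slide and replicate blocks, slide 2 alone, 1 probe per name, and each array left out; spike-in scaling within slide 2 was added after seeing the data. Figures were drawn with matplotlib 3.10.9.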

Additional observations from a re-analysis of the deposited data

Results flagged for a closer look

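Of 117 named probes with 4 unelicited values, 3 had 1 array standing apart from the rest of that group, and about 1 group in 20 would do so by chance. On LjAP2-like6 probe 2 the highest unelicited array read −2.05 and the other arrays between −2.41 and −2.35. On LjERF12_est the lowest read 1.14 against 1.97 to 2.08. On LjERF85 probe 2 the lowest read −0.17 against 1.27 to 1.39.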

How the results depend on the processing

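Counts are given as higher and lower. Against unelicited leaves the main counts were 73 and 32 (3 h) and 76 and 40 (6 h) for ERF and 3 and 11, and 4 and 11, for AP2-like probes; between the times they were 10 and 6 for both together. Scaling on probes measured on every array moved the median of all probes to −1.11 and −1.13 and gave ERF 53 and 49, then 60 and 49, and AP2-like 2 and 11, then 4 and 11. Spike-in scaling gave ERF 47 and 45, then 48 and 53, and AP2-like 1 and 11, then 3 and 11. It gave 2 higher between the times, beside 0.272% of all probes. On slide 2 alone it gave ERF 73 and 45, then 68 and 56 of 161. There it gave AP2-like 5 and 12 at 3 h and 46 lower between the times. Normexp gave ERF 68 and 15, then 60 and 23, AP2-like 1 and 3, then 1 and 5, and 0 and 0 between the times (limma; 26 and 17 at an unadjusted p under 0.05). Quantile normalization gave AP2-like 5 higher at 3 h, beside 33.6% of all probes, and 2 lower between the times, beside 1.09%. Compared probes limited to those above background on every array gave ERF 45 and 6, then 42 and 10 of 83. All probes so limited were 45.1% higher and 25.8% lower at 3 h, then 44.6% and 27.5%. AP2-like probes gave 0 and 3 at both times of 4 (also at an unadjusted limma p under 0.05). Between the times there were 6 and 3, beside 2.74% and 3.22% of all. No filter gave 3 lower there, beside 0.595%. With 1 probe per name there were 46 and 20, then 47 and 25 of 99 for ERF, and 7 lower of 12 AP2-like probes at both times. Of all probes so chosen 37.5% were higher and 36.2% lower at 3 h, and 37.0% and 37.9% at 6 h. Slide as a block gave AP2-like 6 higher at 3 h and 28 and 31 between the times, and slide 2 alone 6, and 27 and 29. Shares of all probes between the times were 10.9% and 9.04% with the block and 8.21% and 6.56% on slide 2 alone. With 1 array left out, ERF counts ranged from 68 to 76 and 26 to 37, then 73 to 78 and 33 to 43. AP2-like counts ranged from 3 to 4 and 10 to 12, then 4 and 11 to 12. Between the times there were 3 to 12 and 1 to 9, beside 0.632% to 3.54% and 0.151% to 2.25% of all probes. Deviations of same-numbered arrays from their group means correlated at −0.044 to 0.063. With 3 or 4 arrays a group, and 2 slides among the unelicited ones, this cannot settle whether the numbers pair the samples. With the replicate block there were 5 and 3 between the times, beside 1.8% and 0.599% of all probes.

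Directions of single probes turned as follows, and the cause was not tested. Scaled on probes measured on every array, LjERF115 at 6 h was −0.21 and −0.26 on its probes, LjERF8 probe 1 at 3 h −0.88, LjERF85_est at 6 h −0.86 and LjERF91 probe 1 at 6 h −0.03. Under normexp LjAP2-like13 was 0.20 and LjAP2-like17_est 0.09 at 3 h, LjAP2-like3 −0.15 between the times and LjERF55 probe 2 0.05 at 3 h. Under quantile normalization LjERF46 probe 1 was −0.05 and LjERF9 probe 1 −2.08 at 3 h, LjERF75 probe 1 −1.13 and −1.94, LjERF8 probe 1 −1.96 and −1.84, and LjERF85_est −1.48 and LjERF91 probe 1 −0.74 at 6 h. On slide 2 alone and with slide as a block LjAP2-like11 was 1.32 and 1.21, LjERF20 −2.15 and −2.17, LjERF20_est −1.76 and LjERF21 probe 1 0.93 at 3 h, and LjERF8 probe 2 0.90 at 6 h. Spike-in scaling gave LjERF115 −0.79 and −0.84, LjERF46 probe 2 −0.03, LjERF85_est −1.44 and LjERF91 probe 1 −0.51 at 6 h, and on slide 2 alone LjAP2-like11 0.88, LjERF20 −2.59 and −2.61 and LjERF20_est −2.20 at 3 h, and LjERF115 probe 1 −0.07 and LjERF85_est −1.35 at 6 h. Without GSH 6 h replicate 1, LjERF91_est was 0.95 at 6 h, and over the arrays left out it ranged from −2.18 to 0.95. Of the named probes that passed, leaving out 1 array ended 11 of 84 calls at 3 h, 6 of 87 at 6 h and 12 of 13 between the times.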
